A study of Mus musculus with 25 samples.

Results

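The 81 genes described here encode the nuclear part of the oxidative phosphorylation machinery in whole mouse aortas, taken by symbol as the subunits of complexes I to V of the inner mitochondrial membrane. A gene entered by its symbol and when its mean was at least 1 FPKM over all libraries. FPKM are fragments set relative to the length of the transcript and the number mapped in the library. Symbols taken began as Nduf with a, b, c, s or v and a number, Uqc, Cox4 to Cox8 or Atp5a to Atp5o. Cyc1 and Sdha to Sdhd were taken by their full symbol, and symbols with -ps were not taken. Of 85 symbols of that form, the brown fat and muscle isoforms Cox8b and Cox7a1 were left out by name and 2 others had a lower mean, so that 81 of the 12797 genes tested and of the 23284 genes listed were kept. They comprise 37 genes assigned to complex I, 4 to complex II, 10 to complex III, 15 to complex IV and 15 to complex V. Of these, 76 encode structural subunits and 5 do not, or belong to another complex than their symbol says. These 5 are Uqcc (an assembly factor of complex III), Cox4nb (a subunit of the ER membrane complex), Cox7a2l (a factor of respiratory supercomplexes), Ndufa4 (named for complex I but found in complex IV) and its paralog Ndufa4l2.

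Complexes I and II pass electrons from NADH and succinate to coenzyme Q, complex III hands them to cytochrome c, and complex IV reduces oxygen. Complexes I, III and IV pump protons while they work, and complex V, the ATP synthase, lets the protons back to make ATP. Brown adipocytes, which surround the mouse aorta as perivascular fat, and heart muscle are especially rich in these complexes, and in brown fat the uncoupling protein Ucp1 lets protons return without making ATP. Genes of mitochondrial DNA, which encode further subunits, were not analysed here.

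Aortas came from male C57/BL6J mice that lacked Apoe (EKO) or Apoe and Apoa1 (DKO), so that the loss of Apoe was common to all. EKO and DKO mice received a Western-type diet (WD) or a normal laboratory diet (NLD, chow in the labels) for 22 or 6 weeks from an age of 8 weeks. The 25 libraries fall into 8 groups of genotype, diet and time. DKO on NLD at 6 weeks has 4 of them, every other group 3. The comparisons ask how the RNA of the respiratory chain differs with time on diet, with the loss of Apoa1 and with diet. All mice began at the same age, so time on diet and age cannot be told apart. No aorta with functional Apoe was analysed here, and the EKO libraries are labelled as older samples that were analysed again, so genotype and any difference in processing cannot be told apart.

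In the group of EKO on WD at 22 weeks, replicate 2 (the partial library) lists 8775 of the 12797 tested genes at 0. Of the 81 genes 56 are among them, so their values there were taken as missing and EKO on WD at 22 weeks has 2 libraries for these genes and 3 for the other 25. The total of FPKM was 448239 to 556933 in the 5 other EKO libraries at 22 weeks and 360421 to 415555 in the remaining 19, and read depth is unknown. Replicates are libraries that the labels number within a group, and p-values measure the spread between these libraries. Smooth muscle markers, which define the vessel wall, summed to 957.8 to 11251 FPKM in the libraries other than the partial one, and markers of brown adipocytes, heart muscle and red blood cells were present as well, with values given beside the results they move with. In whole aortas, fewer cells of a type and less RNA per cell cannot be told apart.

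The highest mean over all libraries, with the zeros of the partial library counted, was that of Cox6a1 (1389 FPKM), the ubiquitous subunit VIa of cytochrome c oxidase, followed by Atp5b (1320 FPKM), the catalytic beta subunit of ATP synthase, and Cox4i1 (1058 FPKM), the common form of subunit IV. Among genes assigned to complex I by symbol the highest means were those of Ndufa4 (671 FPKM), which is found in complex IV, and Ndufb8 (401 FPKM). In complex II they were those of Sdha (424 FPKM) and Sdhb (304 FPKM), and in complex III those of Uqcrq (524 FPKM) and Uqcrh (476 FPKM). The lowest was Cox4i2 (3.76 FPKM), the isoform of subunit IV known for its regulation by oxygen. Together the 81 genes took 6.39% to 8.91% of the total FPKM in the 3 libraries of EKO on NLD at 22 weeks and 2.85% to 7.83% in the other libraries, the partial one left aside.

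When each library was set against the mean of DKO on NLD at 6 weeks, the median log2 ratio of the 81 genes was 0.87, 0.79 and 1.40 in the 3 libraries of EKO on NLD at 22 weeks. These were the 3 highest values of the series. The median ratio was -0.14, -0.17 and -0.65 in EKO on NLD at 6 weeks, the group in which every library lay below 0. The medians were -0.51 and 0.28 in EKO on WD at 22 weeks, and -0.48, 0.38, 0.23 and -0.14 in DKO on NLD at 6 weeks. They were -0.14, 0.73 and 0.30 in EKO on WD at 6 weeks, 0.64, -0.33 and 0.50 in DKO on WD at 22 weeks, 0.23, 0.08 and 0.62 in DKO on NLD at 22 weeks, and 0.17, 0.75 and 0.46 in DKO on WD at 6 weeks. These groups overlapped one another. In complexes I, IV and V the EKO libraries on NLD at 22 weeks were again the 3 highest, whereas in complex II replicate 2 of EKO on WD at 6 weeks (1.04) and in complex III replicate 2 of DKO on WD at 6 weeks (0.94) lay within their range.

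**Figure D1:**
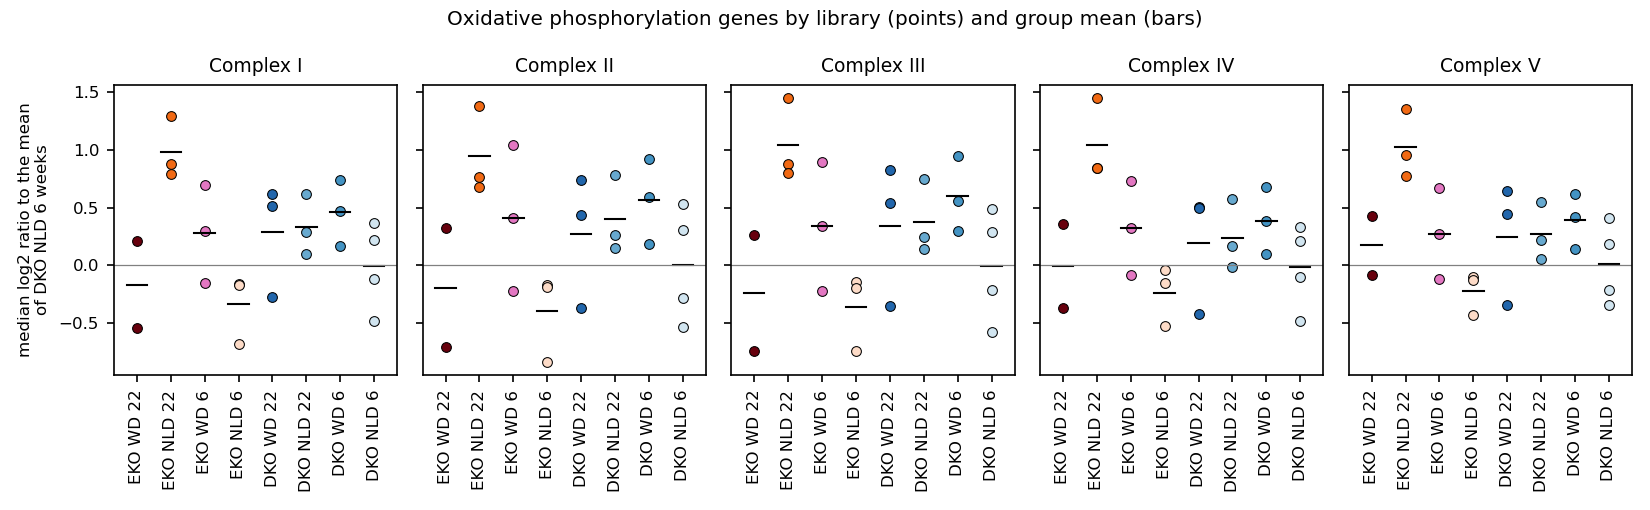
Median log2 ratio to the mean of DKO on NLD at 6 weeks (vertical axis) over the genes of complexes I to V (panels) in each library, with groups on the horizontal axis, time in weeks, 1 point per library, and bars at the group means. The partial library is not drawn. In complex I the 3 libraries of EKO on NLD at 22 weeks lie at 0.88, 0.79 and 1.29, above every other library.

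With time on NLD, nearly the whole machinery was higher in EKO aortas. In EKO on NLD, 74 of the 81 genes were called higher at 22 than at 6 weeks and 0 were called lower, with a median log2 fold change of 1.35 over all 81 (limma, Benjamini-Hochberg adjusted p under 0.05 over all genes tested). By the same rule 25.5% of all genes tested were called higher, and the median over all genes was 0.12. At an unadjusted p under 0.05, 76 were higher and 0 lower. Counts at an unadjusted p, here and below, are given without the share over all genes. Counts by complex, here and below, follow the symbols and so include the genes that are not subunits of that complex. Calls were made for 35 of 37 genes of complex I (median 1.37) and 4 of 4 of complex II (median 1.31). They were made for 9 of 10 of complex III (median 1.44), 12 of 15 of complex IV (median 1.30) and 14 of 15 of complex V (median 1.27). All fold changes here are on the log2(FPKM + 1) scale, which understates the change of low genes. With each library left out in turn the count lay between 51 and 75, and it was 12, at the same median, when the zeros of the partial library were kept as values. The total of FPKM also differed, with 508235 to 556933 in EKO on NLD at 22 weeks, against 372110 to 398504 at 6 weeks. In DKO on NLD it was 373771 to 396019 at 22 weeks and 371400 to 390282 at 6 weeks. The part of this difference between libraries in the change with time was not tested.

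Complex V held the largest change. Atp5k, which encodes the small e subunit in the membrane part of ATP synthase, had 719, 986 and 1245 FPKM in EKO on NLD at 22 weeks, against 172, 193 and 118 FPKM at 6 weeks. The groups did not overlap, and the log2 fold change was 2.60 ± 0.33 (SE, n = 3 each, limma adjusted p = 1.29e-05), or 6.06-fold. Atp5h, the d subunit of the peripheral stalk, had 554, 639 and 801 FPKM at 22 weeks, against 217, 193 and 155 FPKM at 6 weeks, again without overlap (log2 fold change 1.81 ± 0.26, limma adjusted p = 5.21e-05). The catalytic Atp5b had 1703, 1499 and 2987 FPKM at 22 weeks, against 731, 892 and 521 FPKM at 6 weeks, and rose by 1.49 ± 0.43 on the log2 scale (limma adjusted p = 0.0122). Its partner Atp5a1, the alpha subunit, changed by 1.27 ± 0.38 (limma adjusted p = 0.0153). The estimates of both catalytic subunits lay below those of Atp5k and Atp5h, a difference that was not tested.

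In complex I, Ndufs6, an accessory subunit with a zinc site, had 260.1, 231 and 365 FPKM at 22 weeks, against 84.4, 92.3 and 59.2 FPKM at 6 weeks in EKO on NLD. The log2 fold change was 1.84 ± 0.30 (SE, n = 3 each, limma adjusted p = 0.000191) with no overlap between the groups. Ndufa13, an accessory subunit also known as GRIM-19, had the smallest p of complex I, with 121, 107 and 133 FPKM at 22 weeks, against 52.3, 49.8 and 35.2 FPKM at 6 weeks. Ndufs7, an iron-sulphur subunit next to the coenzyme Q site, rose by 1.75 ± 0.33 on the log2 scale, and Ndufv1, which holds the flavin that takes electrons from NADH, by 1.48 ± 0.40. Ndufs1, the largest iron-sulphur subunit, had 108, 107 and 185 FPKM at 22 weeks, against 81.2, 82.8 and 50.1 FPKM at 6 weeks. These groups did not overlap either, yet the difference of 0.88 ± 0.41 did not pass (limma adjusted p = 0.0977).

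All 4 genes of complex II, the succinate dehydrogenase of the citric acid cycle, were called. Sdhb, its iron-sulphur subunit, had 446, 395 and 629 FPKM at 22 weeks, against 196, 217 and 123 FPKM at 6 weeks in EKO on NLD (log2 fold change 1.47 ± 0.40, SE, n = 3 each, limma adjusted p = 0.00888). Sdhc, a membrane anchor, rose by 1.12 ± 0.29 and Sdha, the flavoprotein, by 1.26 ± 0.45. The spread of Sdha was wide, with 483, 447 and 926 FPKM at 22 weeks, against 265, 332 and 163 FPKM at 6 weeks.

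In complex III, the small subunit gene Uqcr11 had 731, 654 and 839.8 FPKM at 22 weeks, against 231, 209 and 156 FPKM at 6 weeks in EKO on NLD. This was the largest change of the complex, 1.90 ± 0.30 (SE, n = 3 each, limma adjusted p = 0.00016). Uqcrq, another small subunit, rose by 1.81 ± 0.40, and Cyc1, the cytochrome c1 that passes electrons to cytochrome c, by 1.77 ± 0.41. Uqcrfs1, the Rieske iron-sulphur protein, rose by 1.43 ± 0.42. Uqcrc2, a core protein, was the gene of this complex that did not pass, at 1.02 ± 0.41 (limma adjusted p = 0.0595).

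In complex IV, Cox5b, a subunit that binds zinc, had 940.1, 805 and 1145 FPKM at 22 weeks, against 345, 293 and 199 FPKM at 6 weeks in EKO on NLD (log2 fold change 1.80 ± 0.35, SE, n = 3 each, limma adjusted p = 0.000938). Cox6a1 had 2339.9, 1794 and 3325 FPKM at 22 weeks, against 764, 910.3 and 579 FPKM at 6 weeks. Both pairs of groups were free of overlap. Cox6a1 rose by 1.70 ± 0.37 on the log2 scale, Cox6c by 1.59 ± 0.32 and Cox4i1 by 1.39 ± 0.34.

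**Figure D2:**
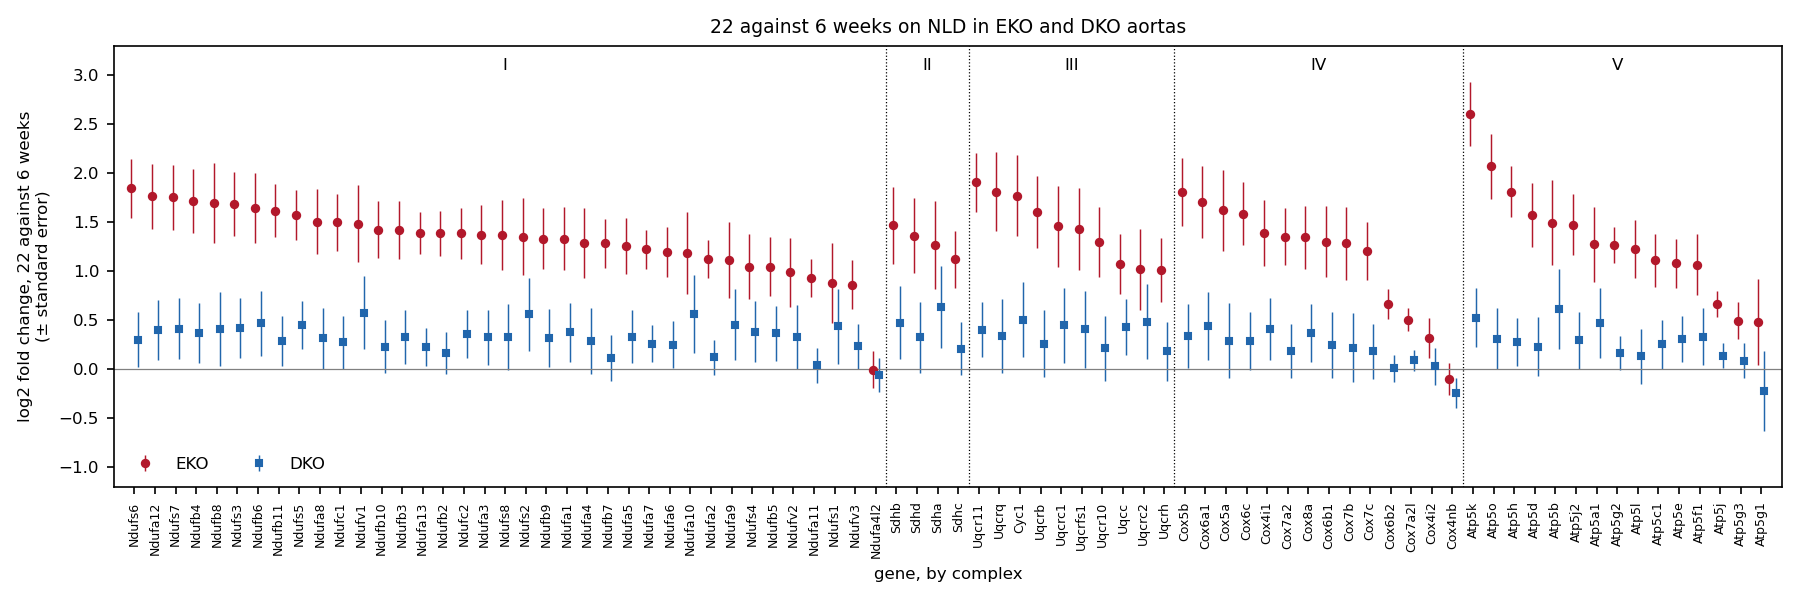
Log2 fold change of 22 against 6 weeks on NLD (vertical axis, ± standard error) for 80 genes in order of complex and of size in EKO, with EKO as circles and DKO as squares. Cox6a2, whose standard error was 1.61 in EKO, is left off. Atp5k stands highest in EKO at 2.60, and the DKO values lie between -0.24 and 0.63.

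Among isoform pairs, Ndufa4 had 889, 1052 and 1595 FPKM at 22 weeks, against 548, 474 and 395 FPKM at 6 weeks in EKO on NLD, whereas its paralog Ndufa4l2, known as a target of hypoxia signalling, had 13.7, 11.9 and 11.4 FPKM, against 12.5, 14.4 and 10.4 FPKM. The estimates were 1.29 ± 0.36 for Ndufa4 (SE, n = 3 each, limma adjusted p = 0.0107) and -0.01 ± 0.19 for Ndufa4l2 (limma adjusted p = 0.987). Over the 8 groups Ndufa4l2 stayed between 7.62 and 17.8 FPKM. Cox4i2 had 4.41, 4.04 and 4.65 FPKM at 22 weeks, against 3.99, 3.22 and 2.80 FPKM at 6 weeks, with an estimate of 0.31 ± 0.20 that did not pass (limma adjusted p = 0.236). Its common partner Cox4i1 was called. The difference between the members of a pair was not tested.

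The 3 genes of the c ring of ATP synthase encode the same mature protein behind different import signals. Atp5g2 had 286, 254 and 338 FPKM at 22 weeks, against 130.3, 129 and 104 FPKM at 6 weeks in EKO on NLD (log2 fold change 1.27 ± 0.18, SE, n = 3 each, limma adjusted p = 6.49e-05). Atp5g3 had 255, 260.5 and 303 FPKM at 22 weeks, against 241, 183 and 162 FPKM at 6 weeks, a change of 0.50 ± 0.19 (limma adjusted p = 0.0448) that turned to -0.05 when values were corrected for transcript length (limma adjusted p = 0.837). Atp5g1, the least abundant form, had 42.7, 44.6 and 27.6 FPKM, against 37.9, 20.7 and 24.0 FPKM, and overlapped between the groups (0.48 ± 0.44, limma adjusted p = 0.409). Atp5g2 shares 87.4% of its 50 nt stretches with transcripts of other genes, among them Gm10175, and the value of Atp5g2 is uncertain to that extent.

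Cox6a2, the heart and skeletal muscle form of subunit VIa, was high in single libraries that were also high in muscle markers. It reached 119.6 FPKM in replicate 1 of DKO on WD at 22 weeks, 30.4 FPKM in replicate 2 of DKO on WD at 6 weeks, 27.0 FPKM in replicate 2 of DKO on NLD at 6 weeks and 20.1 FPKM in replicate 3 of DKO on NLD at 22 weeks, and lay between 0 and 15.7 FPKM in the other libraries. The summed FPKM of 8 cardiac muscle markers was 3623, 59.0, 933 and 518.8 in these 4 libraries in that order, and 20.0 to 418 in the others. In replicate 2 of DKO on WD at 6 weeks the sum of 8 skeletal muscle markers was 931 FPKM, the highest of the series. The change of Cox6a2 with time in EKO on NLD was -0.19 ± 1.61 (SE, n = 3 each, limma adjusted p = 0.945).

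Of the 5 genes that are not subunits of the complex their symbol names, Uqcc (1.08), Cox7a2l (0.50) and Ndufa4 (1.29) were called higher at 22 weeks in EKO on NLD, on the log2 scale. Cox7a2l had 123, 126 and 150.2 FPKM at 22 weeks, against 94.6, 89.9 and 94.8 FPKM at 6 weeks. The subunit it resembles, Cox7a2 (1.35), had 200.2, 263 and 344 FPKM, against 122, 107 and 81.7 FPKM. Both were free of overlap. Cox4nb, which has no known role in respiration, had 18.6, 21.5 and 18.5 FPKM, against 21.8, 20.1 and 21.1 FPKM, with an estimate of -0.10 ± 0.16 (SE, n = 3 each, limma adjusted p = 0.653).

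**Figure D3:**
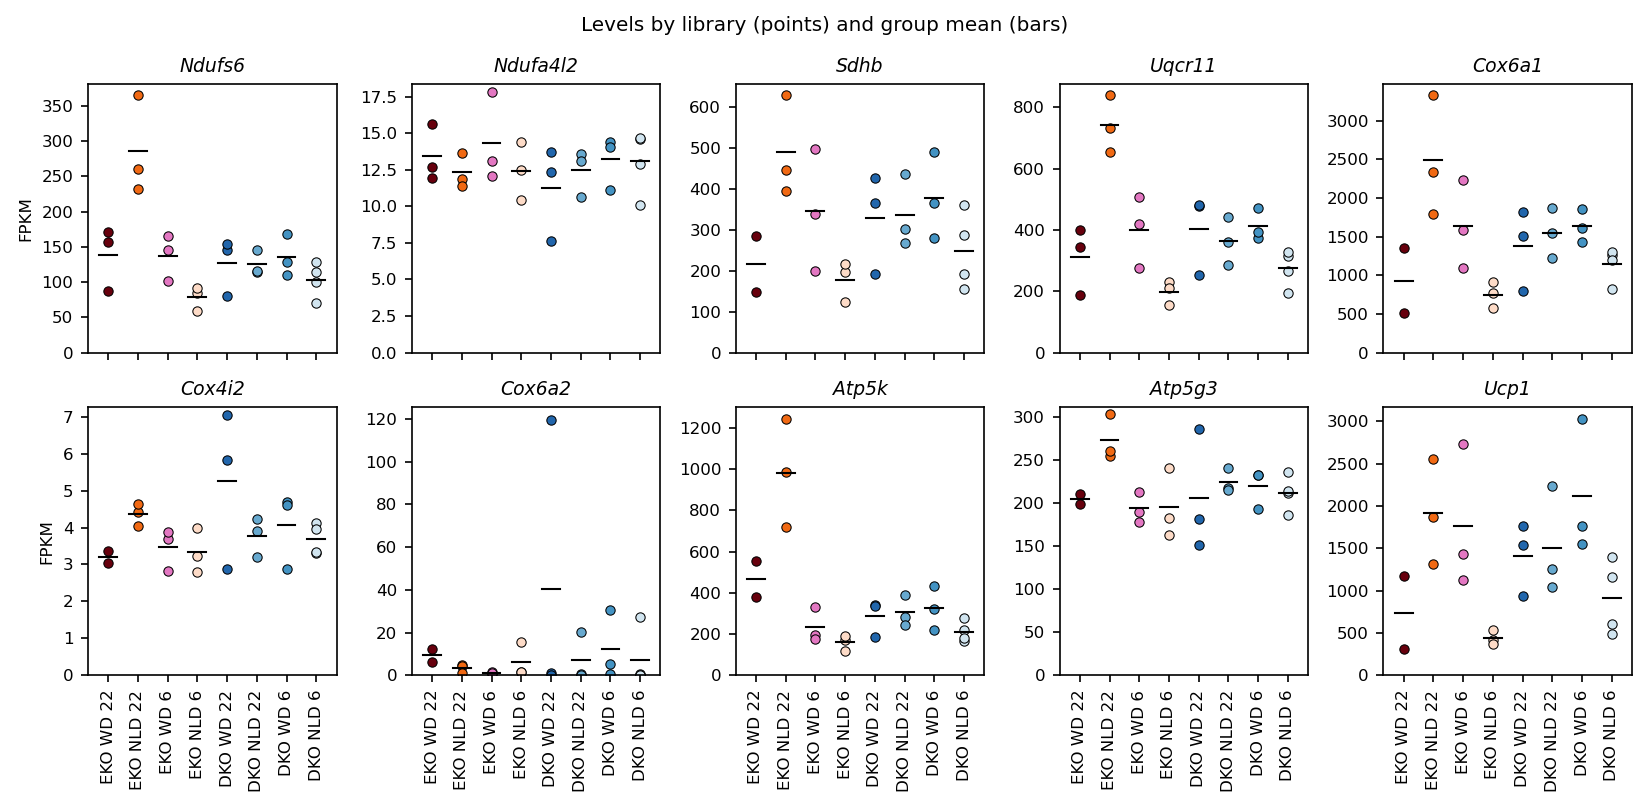
FPKM (vertical axis, from 0) of 9 oxidative phosphorylation genes and of Ucp1 by group (horizontal axis, time in weeks), with 1 point per library and bars at the group means. Zeros of the partial library are not drawn. Atp5k reaches 719 to 1245 FPKM in EKO on NLD at 22 weeks, while Ndufa4l2 stays between 7.62 and 17.8 FPKM in all groups.

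Promoters are shown for 4 genes because they hold both of 2 motifs known from promoters of respiratory chain genes, with 1 gene for each complex that has such a gene. Printed 5′ to 3′, each is a RefSeq promoter of 250 bases before and 50 after the start of the gene in GRCm38.p6 (the mm10 assembly). Capitals mark GCATGCG, the core bound by nuclear respiratory factor 1, and CCGGAAG, the core bound by ETS factors such as GABP, on either strand. CGCATGCG reads as GCATGCG on both strands, so such a run holds 2 overlapping matches.
Atp5k, chr5:108434350-108434649, - strand: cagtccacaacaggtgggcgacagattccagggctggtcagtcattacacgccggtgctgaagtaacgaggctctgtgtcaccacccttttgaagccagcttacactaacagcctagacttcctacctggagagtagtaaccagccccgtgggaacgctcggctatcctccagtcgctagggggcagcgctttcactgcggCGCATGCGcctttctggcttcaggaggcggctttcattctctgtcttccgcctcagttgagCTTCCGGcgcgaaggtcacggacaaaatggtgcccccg
Uqcr11, chr10:80406772-80407071, - strand: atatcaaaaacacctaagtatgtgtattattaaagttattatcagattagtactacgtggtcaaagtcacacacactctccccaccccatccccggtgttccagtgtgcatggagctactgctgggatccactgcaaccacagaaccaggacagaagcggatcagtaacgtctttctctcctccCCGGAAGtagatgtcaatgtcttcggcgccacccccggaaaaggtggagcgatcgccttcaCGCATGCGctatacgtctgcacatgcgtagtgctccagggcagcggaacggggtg
Cox6a1, chr5:115348909-115349208, - strand: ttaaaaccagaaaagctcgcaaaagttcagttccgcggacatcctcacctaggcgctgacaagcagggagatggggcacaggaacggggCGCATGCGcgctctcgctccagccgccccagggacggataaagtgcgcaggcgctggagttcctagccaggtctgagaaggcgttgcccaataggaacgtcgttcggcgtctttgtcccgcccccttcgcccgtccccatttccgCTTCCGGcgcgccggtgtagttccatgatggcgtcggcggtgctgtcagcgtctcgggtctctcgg
Sdhb, chr4:140961021-140961320, + strand: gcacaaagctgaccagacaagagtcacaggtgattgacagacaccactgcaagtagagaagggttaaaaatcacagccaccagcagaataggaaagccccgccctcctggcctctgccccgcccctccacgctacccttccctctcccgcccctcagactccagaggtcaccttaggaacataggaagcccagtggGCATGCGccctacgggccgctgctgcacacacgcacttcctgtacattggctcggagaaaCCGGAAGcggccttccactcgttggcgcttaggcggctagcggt
Promoters were found for 65 of the 81 genes. GCATGCG was present in 11 of them (16.9%), against 4.02% of 27025 genes with a promoter in the same table, and CCGGAAG in 16 (24.6%), against 9.93%. Either was present in 21 (32.3%), against 13.2%, and both in 6. The median log2 fold change of 22 against 6 weeks in EKO on NLD was 1.36 for the 21 genes with either motif and 1.36 for the 44 with neither. A match says only that the letters are there.

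The same span of time on NLD gave no calls in DKO. In DKO on NLD, 0 of the 81 genes were called at 22 against 6 weeks by limma, 0 in either direction also at an unadjusted p under 0.05, and 0.0547% of all genes tested were called. The median over the 81 genes was 0.32 and 78 of 81 estimates were positive. Atp5k had 282, 243 and 390.1 FPKM in DKO at 22 weeks, against 168, 218, 278 and 181 FPKM at 6 weeks, which overlap. Uqcr11 had 362, 284 and 442 FPKM, against 193, 313, 327 and 266 FPKM, and Ndufs6 had 114, 116 and 146 FPKM, against 69.7, 128, 115 and 101 FPKM. Both of these genes overlapped between the times as well.

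A direct test of the difference, time by genotype on NLD, called 9 genes with a larger change in EKO than in DKO and 0 with a smaller one, where 3.14% of all genes tested were called in the first direction. These were Atp5k (2.07 ± 0.45), Atp5o (1.76 ± 0.45), Atp5h (1.54 ± 0.36) and Atp5g2 (1.10 ± 0.25) of complex V, Ndufs6 (1.55 ± 0.41), Ndufb2 (1.22 ± 0.31), Ndufa13 (1.16 ± 0.29) and Ndufa2 (1.00 ± 0.26) of complex I, and Uqcr11 (1.50 ± 0.42) of complex III, each a difference in log2 fold change with its SE. The limma adjusted p ranged from 0.00825 for Atp5k to 0.0467 for Uqcr11. Of them Atp5o, the stalk subunit also called OSCP, Ndufb2 and Ndufa2 were named after their values were seen. The median difference over the 81 genes was 1.02, against 0.08 over all genes. At an unadjusted p under 0.05, 53 of the 81 genes passed, with the share of all genes at that p not given. Single libraries moved this count. It was 2 without replicate 3 of EKO on NLD at 22 weeks, without replicate 3 of EKO on NLD at 6 weeks or without replicate 2 of DKO on NLD at 22 weeks, 3 to 5 without replicate 1 of EKO or of DKO on NLD at 22 weeks or without replicates 2 or 3 of DKO on NLD at 6 weeks, and 14 without replicate 1 of DKO on NLD at 6 weeks.

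In EKO on WD, 0 of the 81 genes were called at 22 against 6 weeks by limma, where 19.2% of all genes tested were called, and 3 were higher and 2 lower at an unadjusted p under 0.05. The median over the 81 genes was -0.39, with medians of -0.42, -0.50, -0.51, -0.31 and -0.05 for complexes I to V in that order. Atp5k had 379.8 and 555 FPKM in EKO on WD at 22 weeks, its value in the partial library being missing, against 193, 329 and 174 FPKM at 6 weeks (1.04 ± 0.36, SE, n = 2 and 3, limma adjusted p = 0.0527). Cox6a1 had 507 and 1355 FPKM at 22 weeks, against 1087, 2232 and 1579 FPKM at 6 weeks (-0.92 ± 0.41, limma adjusted p = 0.139), and overlapped between the times. In DKO on WD, 0 genes were called, also at an unadjusted p under 0.05, with 0.219% of all genes tested called and a median of -0.20. Time by genotype on WD called 0 of the 81 genes, where 8.98% of all genes tested were called, and 1 was higher at an unadjusted p under 0.05.

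EKO and DKO aortas on NLD at 22 weeks also differed in these genes. There 16 of the 81 genes were called higher and 0 lower, where 6.42% of all genes tested were called higher, and the median was 0.68, against 0.08 over all genes. Calls were made for 9 genes of complex I, 0 of complex II, 1 of complex III, 1 of complex IV and 5 of complex V. Atp5k had 719, 986 and 1245 FPKM in EKO, against 282, 243 and 390.1 FPKM in DKO, with no overlap (log2 fold change 1.68 ± 0.33, SE, n = 3 each, limma adjusted p = 0.00195). Cox5b had 940.1, 805 and 1145 FPKM in EKO, against 372, 347 and 524 FPKM in DKO (1.22 ± 0.35, limma adjusted p = 0.0348). Sdhb, which was not called, had 446, 395 and 629 FPKM in EKO, against 302, 267 and 436 FPKM in DKO, and the groups overlapped (0.55 ± 0.40, limma adjusted p = 0.435). The same 3 EKO libraries enter this comparison and that of 22 against 6 weeks. The count was 3 without replicate 3 of EKO or without replicate 2 of DKO, 5 without replicate 1 of DKO and 9 without replicate 1 of EKO in these groups.

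On WD at 22 weeks the median of EKO against DKO was -0.32 with 0 calls by limma (21.5% of all genes tested were called), while before adjustment 2 genes were higher and 4 lower at p under 0.05. On NLD at 6 weeks it was -0.32 with 0 calls (0.141% called over all genes), and before adjustment 0 genes were higher and 1 lower at p under 0.05. In the 6-week WD groups the median was -0.14 with 0 calls (0.148% called over all genes), and 1 gene was higher and 0 lower at that p.

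In EKO at 22 weeks, 48 of the 81 genes were called lower on WD than on NLD and 0 higher, where 9.17% of all genes tested were called lower, with a median of -1.06. The called genes were 28 of complex I, 1 of complex II, 5 of complex III, 8 of complex IV and 6 of complex V. Ndufa13, with the smallest p, had 45.5 and 64.5 FPKM on WD, against 121, 107 and 133 FPKM on NLD (-1.13 ± 0.24, SE, n = 2 and 3, limma adjusted p = 0.00281). Uqcr11 had 187, 400.3 and 345 FPKM on WD, against 731, 654 and 839.8 FPKM on NLD (-1.32 ± 0.30, limma adjusted p = 0.00527). Neither gene overlapped between the diets. Only 1 gene was called lower when replicate 1 of EKO on WD at 22 weeks was left out, and 13 when replicate 3 of EKO on NLD at 22 weeks was left out. With the compared groups alone in the fit, where 2 libraries give the spread of most genes on WD, 3 were called.

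Cell type markers differed between the same groups. In EKO at 22 weeks macrophage markers summed to 1144 and 1245 FPKM on WD, again outside the partial library, against 225, 135 and 174 FPKM on NLD, and 5 of 5 were called higher, where 10.4% of all genes tested were. Brown adipocyte markers summed to 1031 and 3157 FPKM on WD, against 3978, 4893 and 7325 FPKM on NLD, and 3 of 9 were called lower, where 9.17% of all genes tested were. Of the white adipocyte markers, 4 of 8 were called lower, with sums of 5942 and 6758 FPKM on WD, against 13683, 10218 and 16761 FPKM on NLD. Cardiac muscle markers summed to 418 and 157 FPKM on WD, against 27.6, 43.7 and 40.9 FPKM on NLD, and 0 of 8 were called by limma, with 8 of 8 positive and 1 at an unadjusted p under 0.05. None of these 4 sums overlapped between the diets outside the partial library. The part of these markers in the result was not tested.

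At 6 weeks 0 of the 81 genes were called between the diets in EKO by limma, and the median was 0.62. By the same rule 0.336% of all genes tested were called. At an unadjusted p under 0.05, 36 were higher and 0 lower on WD, with the share of all genes at that p not given. Uqcr11 had 275, 507 and 419 FPKM on WD, against 231, 209 and 156 FPKM on NLD at 6 weeks. The difference between the 2 diet effects, diet by time in EKO, was called lower for 64 genes and higher for 0, where 12.1% of all genes tested were called lower, with a median of -1.68. Uqcr11 differed by -2.30 ± 0.43 (SE, limma adjusted p = 0.00255) and Cox6a1 by -2.62 on the log2 scale. Without replicate 1 of EKO on WD at 22 weeks 14 genes were called.

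In DKO at 22 weeks, 0 genes were called between the diets by limma (1.73% of all genes tested were called), 0 were higher and 1 lower at an unadjusted p under 0.05, and the median was -0.07. At 6 weeks 1 gene was called lower on WD and 0 higher, where 3.6% of all genes tested were called lower, although 79 of the 81 estimates were positive with a median of 0.46. That gene was Cox4nb of the ER membrane complex, with 14.7, 15.9 and 14.3 FPKM on WD, against 25.1, 19.0, 22.0 and 24.5 FPKM on NLD (-0.56 ± 0.15, SE, n = 3 and 4, limma adjusted p = 0.0441). It lost the call when any of the libraries compared was left out, other than replicate 2 of DKO on NLD, and without some libraries of other groups. Diet by time in DKO called 0 genes (0.0391% of all genes tested were called), with 0 higher and 1 lower at an unadjusted p under 0.05 and a median of -0.49. Diet by genotype called 0 genes at 6 weeks (0.0313% of all genes tested were called), also at an unadjusted p under 0.05. At 22 weeks it called 1 gene lower, Ndufa13 (-1.13 ± 0.32, SE, limma adjusted p = 0.0492), where 0.821% of all genes tested were called lower. At an unadjusted p under 0.05, 40 of the 81 genes were lower, with the share of all genes at that p not given. The single call of Ndufa13 became 0 to 21 calls as single libraries were left out, with 21 without replicate 2 of DKO on WD at 22 weeks.

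Some markers of brown adipocytes differed between the same groups as the respiratory chain and others did not. The list of 10 markers includes the cytochrome c oxidase isoforms Cox7a1 and Cox8b, and 9 of its genes were tested. Their summed FPKM was 3978, 4893 and 7325 in EKO on NLD at 22 weeks, against 1545, 1914 and 1182 in EKO on NLD at 6 weeks, with no overlap. It was 3758, 3406 and 6131 in DKO on NLD at 22 weeks, against 1516, 3773, 3721 and 1967 in DKO on NLD at 6 weeks, and 1031 and 3157 in EKO on WD at 22 weeks, against 2690, 7300 and 3974 at 6 weeks. In DKO on WD it was 5168, 2483 and 5428 at 22 weeks, against 4531, 7413 and 4786 at 6 weeks, so that both DKO groups on WD overlapped EKO on NLD at 22 weeks in these markers. In Atp5k, the gene with the largest change with time in EKO on NLD, they did not overlap. Atp5k had 343, 186 and 334 FPKM in DKO on WD at 22 weeks and 219, 432 and 322 FPKM at 6 weeks. All were below the 719 to 1245 FPKM of EKO on NLD at 22 weeks. Atp5k is an extreme gene and does not stand for the set. The median log2 ratio over all the oxidative phosphorylation genes also stayed below that group. For complex III, a library of DKO on WD at 6 weeks lay within its range. Other single genes went both ways. Atp5b reached 2123 FPKM and Sdhb 491 FPKM in DKO on WD at 6 weeks. Both values lay within the range of EKO on NLD at 22 weeks, whose lowest were 1499 and 395 FPKM. Atp5h reached 305 FPKM in DKO on WD at 6 weeks, below the lowest of 554 FPKM in that EKO group. Not all genes were compared in this way here, and the part of brown adipocytes was not tested. Ucp1 had 1317, 1864 and 2551 FPKM in EKO on NLD at 22 weeks, against 539.8, 417 and 369 FPKM at 6 weeks (log2 fold change 2.08 ± 0.50, SE, n = 3 each, limma adjusted p = 0.00437). Of the 9 markers, 4 were called higher and 0 lower in that comparison, where 25.5% of all genes tested were called higher. These were Ucp1, Cidea, Cox7a1 and Cox8b, while Elovl3 (1.76), Pdk4 (0.70), Ebf2 (0.48), Ppargc1a (0.07) and Dio2 (-0.08) were not called.

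In 6 of the 8 groups the library with the highest Ucp1 was also the one with the highest median over the 81 genes, and in 5 of 8 the lowest of both fell in 1 library. EKO on WD at 22 weeks counts among these with 2 libraries only. With so few libraries in a group, matches also arise by chance, and the count over all genes is not given. The highest Myh6, the alpha heavy chain of heart myosin, fell in the library with the highest median in 4 of 8 groups. Ucp1 and the median parted at the high end in DKO on WD at 22 weeks and DKO on NLD at 6 weeks, and there that library had 504 and 90.5 FPKM of Myh6 in that order. Between EKO and DKO on NLD at 22 weeks the brown adipocyte sums overlapped, and 0 of the 9 markers were called by limma (6.42% of all genes tested were called higher), 0 also at an unadjusted p under 0.05. With the mean level of these markers as a covariate and the partial library left out, 47 of the 81 genes were called higher at 22 weeks in EKO on NLD (median 0.58), 68 in EKO against DKO on NLD at 22 weeks (median 0.77) and 39 in time by genotype on NLD (median 0.74), and 8 were called lower in diet by time in EKO (median -0.37). With cardiac and skeletal muscle markers as covariates these counts were 76, 19, 15 and 72. The shares of all genes called in these fits with covariates are not given. The brown adipocyte covariate itself includes Cox7a1, Cox8b and Ppargc1a, and the part of these cells in the results was not tested.

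**Figure D4:**
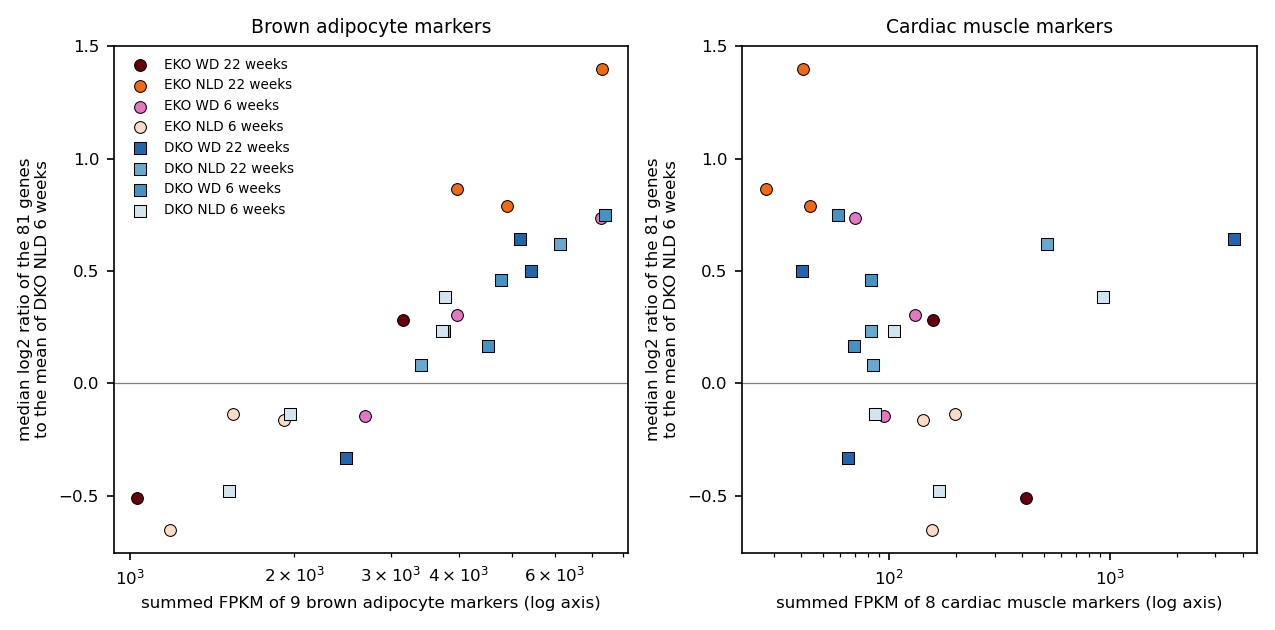
Median log2 ratio of the 81 genes to the mean of DKO on NLD at 6 weeks (vertical axis) against the summed FPKM of 9 brown adipocyte markers (left) or 8 cardiac muscle markers (right) on log axes, with 1 point per library, EKO as circles and DKO as squares, and without the partial library. The 3 libraries of EKO on NLD at 22 weeks have medians of 0.87, 0.79 and 1.40 at brown adipocyte sums of 3978, 4893 and 7325. The brown adipocyte sums include the complex IV isoforms Cox7a1 and Cox8b.

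Markers of other cell types were summed in the same way. White adipocyte markers summed to 13683, 10218 and 16761 FPKM in EKO on NLD at 22 weeks, against 7021, 6537 and 4799 FPKM at 6 weeks, and 6 of 8 were called higher (25.5% of all genes). Smooth muscle markers summed to 4277, 5652 and 3993 FPKM, against 8885, 9959 and 10488 FPKM, and 4 of 6 were called lower (11.2% of all genes). Red blood cell markers summed to 19777, 33883 and 15065 FPKM, against 5834, 6691 and 7537 FPKM, and 2 of 7 were called higher, a share near that of all genes. In EKO against DKO on NLD at 22 weeks 6 of 7 were called higher (6.42% of all genes). In EKO on WD at 22 weeks macrophage markers summed to 1144 and 1245 FPKM outside the partial library, against 214, 112 and 109 FPKM on WD at 6 weeks. The part of each of these cell types in the results was not tested.

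Most genes of 4 lists that work beside the complexes were called higher in EKO on NLD at 22 against 6 weeks. Assembly factors were called higher for 19 of 26 (median log2 fold change 0.73), with Sco2, a copper chaperone of complex IV, at 2.36, Atpaf1 of complex V at 1.02 and Ndufaf2 of complex I at 0.76. Electron carriers and coenzyme Q synthesis were called for 12 of 13 (median 1.28), with Coq2 at 0.91, Coq7 at 1.44 and the electron transfer flavoprotein Etfa at 1.87. Enzymes of the citric acid cycle were called for 11 of 13 (median 1.29), with Suclg2 at 0.79 and Idh3a at 1.50. Exchange and uncoupling proteins were called for 8 of 10 (median 0.79), with the uncoupling protein Ucp2 at 1.35, the channel Vdac2 at 0.95 and the ADP/ATP carrier Slc25a5 at 1.13. None of these lists had a gene called lower in this comparison. The background of 25.5% called higher applies to each.

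Of the regulators of mitochondrial genes, 4 of 12 were called higher, against 25.5% of all genes tested, with a median of 0.17. These included the nuclear receptor Esrra (1.67), the mitochondrial RNA polymerase Polrmt (0.79) and the coactivator Ppargc1b (1.66). Proteins of the mitochondrial ribosome were called higher for 70 of 76 (median 0.91) and those of the cytosolic ribosome for 76 of 91 (median 0.97). In EKO on WD at 22 against 6 weeks 3 of 76 mitochondrial and 72 of 91 cytosolic ribosomal genes were called higher, against 14.8% of all genes tested, with medians of -0.14 and 0.84. In EKO against DKO on NLD at 22 weeks 21 of 76 mitochondrial and 75 of 91 cytosolic ribosomal genes were called higher, where 6.42% of all genes tested and 16 of the 81 oxidative phosphorylation genes were.

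Transcript length moved with the changes. The 81 genes have a median transcript length of 747.5 nt, against 2583 nt over the genes tested, and other genes also had higher medians in the classes under 2000 nt in EKO on NLD at 22 against 6 weeks. In the class of 600 to under 1000 nt the median log2 fold change was 1.42 for 27 oxidative phosphorylation genes, against 0.46 for 889 other genes, of which 46.7% were called higher. In the class of 2000 to under 4000 nt it was 1.18 for 7, against 0.09 for 5123 other genes. After each library was corrected for its trend on length, 51 of the 81 genes were called higher in this comparison (median 0.86), 4 in EKO against DKO on NLD at 22 weeks (median 0.34), 1 in time by genotype on NLD (median 0.62), and 31 were called lower on WD in EKO at 22 weeks (median -0.83). Rescaling libraries to a common median took the median of all genes to 0.01 in EKO on NLD at 22 against 6 weeks, a shift of over 0.1, with 69 genes called. The shares of all genes called with length corrected or with rescaling are not given, so these counts have no background beside them.

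**Figure D5:**
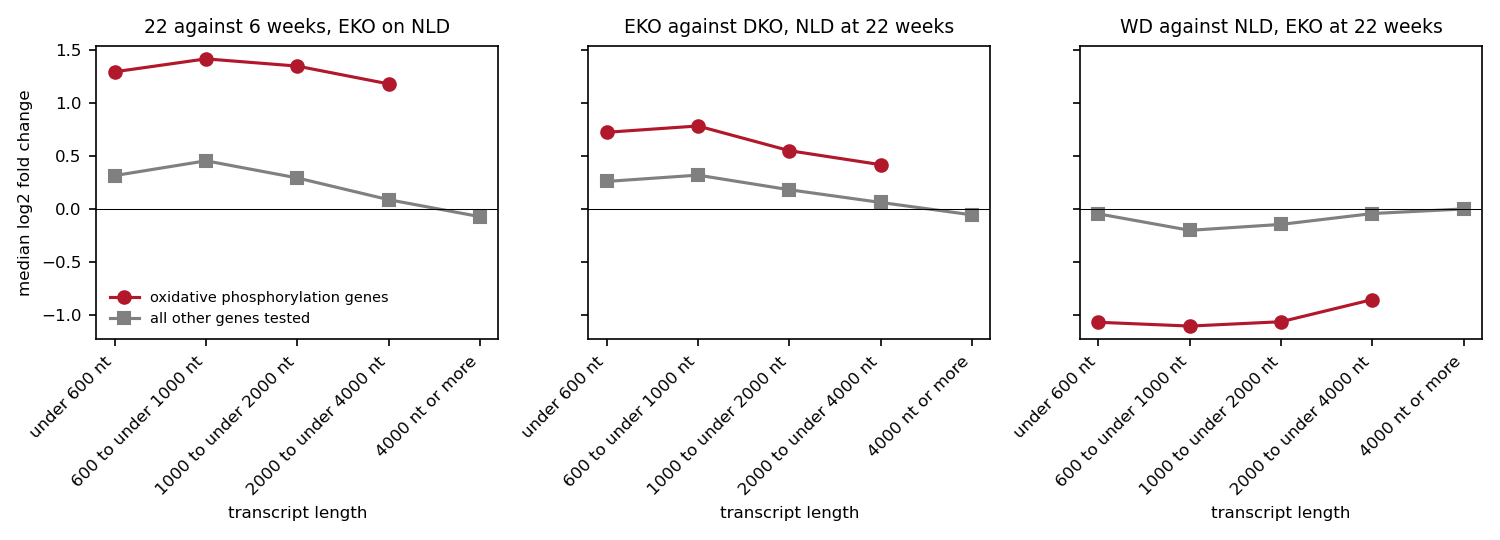
Median log2 fold change (vertical axis) of the oxidative phosphorylation genes and of all other genes tested by class of transcript length (horizontal axis) in 3 comparisons (panels). In the class of 600 to under 1000 nt the medians for 22 against 6 weeks in EKO on NLD are 1.42 and 0.46.

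Some of these genes share sequence with others. At least 5% of the 50 nt stretches of 34 genes also occur in transcripts of other genes, and 24 have exons that overlap another gene, which the unstranded library kit cannot separate. The shared portion was 1.08% for Atp5k, 10.9% for Uqcr11, 12.3% for Cox6a1, 23.0% for Cox5b, 28.5% for Ndufa13, 38.8% for Atp5h and 50.3% for Atp5o. For Atp5o the entry that shared most was another one under the same symbol, and Atp5o is counted among the 34 genes. In EKO on NLD at 22 against 6 weeks 30 of the 34 genes and 44 of the other 47 were called higher, with medians of 1.40 and 1.30. In time by genotype on NLD 7 of the 9 called genes were among the 34, and the medians were 1.14 and 0.98.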

How the data were processed

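RNA of whole aortas, perfused to remove blood, was sequenced with unpaired reads from a library kit that does not mark strand. The authors aligned reads with TopHat 1.3.2 and Bowtie 0.12.8 to mm10, used SAMtools 0.1.19, and made FPKM with Cufflinks and Cuffdiff. The deposited table holds these FPKM per gene and library, with no counts, so depth and counting intervals are unknown. Groups came from the labels.

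Genes whose mean reached 1 FPKM (12797) were tested on log2(FPKM + 1) with limma 3.58.1 in R 4.3.3. The fit had 8 group means with trend and robust estimation. Zeros of the partial library were treated as missing, and p-values were adjusted by Benjamini-Hochberg over all genes tested with a threshold of 0.05. There were 12 comparisons of groups and 6 differences between them. The script was tested on simulated data.

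Members and gene lists were chosen with earlier results of these data known. The genes named are, in each complex, those with the 2 highest means, those with the 2 smallest p and the one with the largest p in EKO on NLD at 22 against 6 weeks, together with subunits that carry redox or catalytic centres, isoform pairs, and the 3 genes of smallest p in each pathway list. 1 gene that this rule names is not reported here. Others were named after their values were seen. Transcript lengths and shared 50 nt stretches came from GENCODE transcripts, and promoters from RefSeq. Same-numbered libraries did not deviate together, so the numbers were not used to pair them. Alternatives were other pseudocounts, no filter, rescaling, kept zeros, no trend, a replicate block, a length correction, marker covariates, the compared groups alone and each library left out.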

Additional observations from a re-analysis of the deposited data

Results flagged for a closer look

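In DKO on NLD at 6 weeks, the 4 libraries include one that stands far from the rest for 2 genes. Replicate 2 had 27.0 FPKM of Cox6a2, against 0.662, 0.108 and 0.304 FPKM in the others, and 33.2 FPKM of Atp5g1, against 25.3, 25.3 and 23.7 FPKM. The same library had the highest Myh6 of its group, at 90.5 FPKM. By chance a library stands this far apart for about 1 in 20 genes in such a group, and 32 genes were examined here.

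The change with time on NLD was larger in EKO than in DKO for 9 genes by a direct test of the difference (limma adjusted p under 0.05). By the same test 3.14% of all genes tested were called in that direction. The count of 9 became 2 to 14 as single libraries were left out. The differences in log2 fold change were 2.07 for Atp5k, 1.76 for Atp5o, 1.55 for Ndufs6, 1.54 for Atp5h, 1.50 for Uqcr11, 1.22 for Ndufb2, 1.16 for Ndufa13, 1.10 for Atp5g2 and 1.00 for Ndufa2.

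The effect of WD against NLD at 22 weeks was lower in EKO than in DKO for 1 gene, Ndufa13, by -1.13 on the log2 scale. There 0.821% of all genes tested were called lower, and the count became 0 to 21 as single libraries were left out. In EKO the effect of diet was lower at 22 than at 6 weeks for 64 genes, where 12.1% of all genes tested were called lower. That count became 14 to 72 as single libraries were left out.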

How the results depend on the processing

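Named genes that were called kept their direction in every setting, except that the change of Atp5g3 (Atp5g3, 22 against 6 weeks, EKO on NLD) turned to -0.0505 with length corrected and -0.0609 with length corrected and libraries rescaled, an alternative chosen after seeing the data. For that comparison (74 genes higher) the count was 12 with zeros kept, 47 with the brown adipocyte covariate and 49 with length corrected and rescaled. For EKO against DKO on NLD at 22 weeks (16 higher) it was 9 with rescaling, 1 with zeros kept, 4 with length corrected, 4 with both and 68 with the brown adipocyte covariate. For time by genotype on NLD (9 higher) it was 0 with zeros kept, 1 with length corrected, 1 with both, 39 with the brown adipocyte covariate, 15 with muscle covariates and 15 with the compared groups alone. For WD against NLD in EKO at 22 weeks (48 lower) it was 1 with zeros kept, 31 with length corrected, 29 with both, 30 with the brown adipocyte covariate and 3 with the compared groups alone. For diet by time in EKO (64 lower) it was 0 with zeros kept and 8 with the brown adipocyte covariate. The brown adipocyte covariate also gave 10 genes higher in EKO on WD over time (1 with length corrected, 1 with both, 1 with the compared groups alone; lower were 1, 5, 5 and 0, and 1 with rescaling), 13 in EKO against DKO on WD at 22 weeks (lower were 0, but 4 with length corrected, 4 with both and 1 with rescaling), 6 in time by genotype on WD and 1 in DKO between diets at 22 weeks. The call in DKO between diets at 6 weeks was 0 with no filter, rescaling, zeros kept, length corrected, both, and either kind of covariate. Diet by genotype at 22 weeks gave 0 to 6 in place of 1: 0 with pseudocount 0.1, no filter, zeros kept or the compared groups alone, 2 with pseudocount 5 or rescaling, 3 with no trend, length corrected or both, 5 with muscle and 6 with brown adipocyte covariates. The shares of all genes called in these settings are not given, and the causes were not tested.

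With each library left out in turn, the counts ranged from 51 to 75 for EKO on NLD over time, 0 to 1 for EKO on WD over time, 3 to 21 for EKO against DKO on NLD and 0 to 2 on WD at 22 weeks, 1 to 60 for WD against NLD in EKO at 22 weeks, 0 to 1 in DKO at either time, 2 to 14 for time by genotype on NLD, 0 to 21 for diet by genotype at 22 weeks and 14 to 72 for diet by time in EKO. The rest stayed at 0. A replicate block gave 73 genes higher for EKO on NLD over time, 11 for EKO against DKO on NLD at 22 weeks and 5 for time by genotype on NLD, 34 lower for WD against NLD in EKO at 22 weeks and 58 for diet by time in EKO, and 0 in place of 1 for DKO between diets at 6 weeks and for diet by genotype at 22 weeks. Over 77 same-numbered pairs the median correlation of deviations was 0.03 (-0.39 to 0.36), and 6 of 24 libraries correlated best with one of their own number.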
